A study of Mus musculus with 4 samples.

Results

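Proteasome genes were examined in neurospheres, floating cultures of neural stem and progenitor cells, from mouse embryos. The members were the genes whose symbol begins with Psm, a letter from a to g and a digit, on probe sets that the platform annotation assigns to a single symbol. The rule gave 49 of 18193 single symbols, on 106 probe sets, and used no measured value. Psmc3ip and Psme3ip1 match by their letters alone. Psmc3ip encodes HOP2, a protein of homologous recombination, and Psme3ip1 encodes a partner of the activator PA28 gamma, so neither is a subunit. The rule thus holds 47 genes of subunits, activators, an inhibitor and assembly chaperones.

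The cultures came from the ventral telencephalon, the lower forebrain, at stage E12.5. One RNA sample was wild type and the other was labelled as an E2f4 knockout. E2f4 encodes an E2F transcription factor that mainly represses cell-cycle genes. The sources used here do not give the strain, the E2f4 allele, the sex or the number of embryos behind each culture. Both RNAs were run on the Affymetrix designs MOE430A and MOE430B, making 4 arrays, and the study set out to learn which signalling pathways the loss of E2f4 touches. With 1 sample per genotype there was no replicate and no test, so each difference below is between these samples and was not shown to be between the genotypes.

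The proteasome is the cell's main machine for degrading proteins tagged with ubiquitin. Its barrel, the 20S core, stacks rings of alpha subunits, which gate the entry, around rings of beta subunits, of which Psmb5, Psmb6 and Psmb7 carry the cutting sites. The 19S regulatory particle caps the barrel, binds ubiquitin chains, removes them and threads the unfolded protein in. Under interferon the cutting subunits are exchanged for Psmb9, Psmb10 and Psmb8, which together with the activator subunits Psme1 and Psme2 belong to the immunoproteasome that cuts peptides for antigen presentation. Proliferating progenitors depend on the proteasome because cyclins and other cell-cycle proteins are removed by it on schedule.

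The subunit genes of the 20S core and 19S particle stood at nearly equal signals in the wild-type and knockout samples. The values are log2 ratios of the knockout over the wild-type signal, computed within an array design and centred on the median of that design, so that 0 means no difference. All 14 core genes and all 17 regulatory genes were measured, that is, they had a probe set at or above a floor in both samples. The floor was the median signal of a design, 736 on MOE430A and 942 on MOE430B. The median log2 ratio was -0.01 over the core genes and 0.03 over the regulatory genes, where it was -0.001 over all 10171 measured genes. The ratios of these 31 genes ran from -0.28 to 0.24.

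Promoter stretches of 5 genes are printed because the compared samples differ in a gene of the E2F family and because proteasome genes share known control elements. Shown are the 120 bases that end just before the start of each RefSeq promoter window's transcript, 5′ to 3′ on the strand of the gene, in the build GRCm38.p6. Capitals mark 1 motif match per gene, the one named here. The start used for Psmb6 lies inside the span RefSeq gives the gene, so its match lies within that span. Psmb5 and Psmb6, the standard genes of 2 cutting subunits, hold the core of the antioxidant response element, TGACNNNGC, the element bound by NFE2L1 and NFE2L2. Psmc4 and Psmb9 hold an E2F-type motif, on the opposite strand in Psmb9, and Psmc3ip holds CCAAT, the NF-Y motif. The Psmb9 stretch also holds CCAAT on the opposite strand, left in lower case.

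Psmb5, chr14:54617996-54618115, minus strand: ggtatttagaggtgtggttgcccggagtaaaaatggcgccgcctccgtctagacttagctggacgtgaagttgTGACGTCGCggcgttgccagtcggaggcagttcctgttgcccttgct
Psmb6, chr11:70525237-70525356, plus strand: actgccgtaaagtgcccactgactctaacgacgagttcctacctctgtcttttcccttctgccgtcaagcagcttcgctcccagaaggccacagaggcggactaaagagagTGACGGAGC
Psmc4, chr7:28050093-28050212, minus strand: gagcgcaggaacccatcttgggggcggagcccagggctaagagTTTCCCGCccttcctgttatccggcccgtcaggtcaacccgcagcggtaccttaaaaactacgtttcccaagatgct
Psmb9, chr17:34187331-34187450, minus strand: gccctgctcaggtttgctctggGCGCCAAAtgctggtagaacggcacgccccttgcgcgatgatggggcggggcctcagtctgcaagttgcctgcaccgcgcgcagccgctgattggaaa
Psmc3ip, chr11:101095436-101095555, minus strand: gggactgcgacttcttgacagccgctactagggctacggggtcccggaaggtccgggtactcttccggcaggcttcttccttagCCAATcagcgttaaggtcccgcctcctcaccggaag

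In the alpha ring, the median log2 ratio was 0.01 over 7 genes, of which 4 were above 0 and 3 below. Across all measured genes, 49.8% were above 0. Psma2 had the lowest ratio of any member. Its signal was 10269.7 in wild-type and 8449 in knockout RNA, a log2 ratio of -0.28 from its 1 probe set. Psma3 had the highest mean among the subunits, at 0.24, and its probe sets did not match. On MOE430A it read 8354 in wild-type and 8273 in knockout RNA, a log2 ratio of -0.01, while the MOE430B probe set read 1594 and 2243, a log2 ratio of 0.49. The mean of Psma3 above 0 thus rested on the MOE430B probe set.

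Psma4 was level, at 11172.5 in wild-type and 11244 in knockout RNA, a log2 ratio of 0.01. Psma1 was measured by 3 probe sets between -0.04 and 0.06. Psma5 had probe sets at -0.10 and 0.14, Psma6 at -0.22 and 0.12, and Psma7 at -0.06 and 0.11, so that for each of these genes 1 probe set lay on each side of 0. Their means were 0.02 for Psma5, -0.05 for Psma6 and 0.03 for Psma7. A further Psma6 probe set stood at the floor, with 729 in wild-type and 742 in knockout RNA.

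In the beta ring, 6 of 7 genes were below 0, against the same 49.8% of all measured genes above 0, and the median log2 ratio was -0.04. The differences were small: the lowest was Psmb3 at -0.20 and the one gene above 0 was Psmb1 at 0.08. The cutting subunits were close together. Psmb6, the caspase-like subunit, read 11604 in wild-type and 10887 in knockout RNA, a log2 ratio of -0.09. Psmb7, the trypsin-like subunit, read 26574 and 25619.8, a log2 ratio of -0.05. Psmb5, the chymotrypsin-like subunit and the target of proteasome inhibitors, was read by the same probe set on both designs. On MOE430A its signal was 8361 in wild-type and 9112 in knockout RNA, a log2 ratio of 0.13. On MOE430B it was 24720.1 and 21245, a log2 ratio of -0.22. The mean for Psmb5 was -0.04, and its direction differed between the designs.

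The structural beta subunits Psmb2 and Psmb4 were both at -0.01. Psmb3 had probe sets at -0.38 and -0.02, with signals of 5889 and 4512 for the first and 8988 and 8873 for the second, so its lower mean rested on 1 of 2 probe sets. Psmb1 read 7687 in wild-type and 8497 in knockout RNA on 1 probe set, a log2 ratio of 0.15, and 2434 and 2448 on another, at 0.01.

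**Figure D1:**
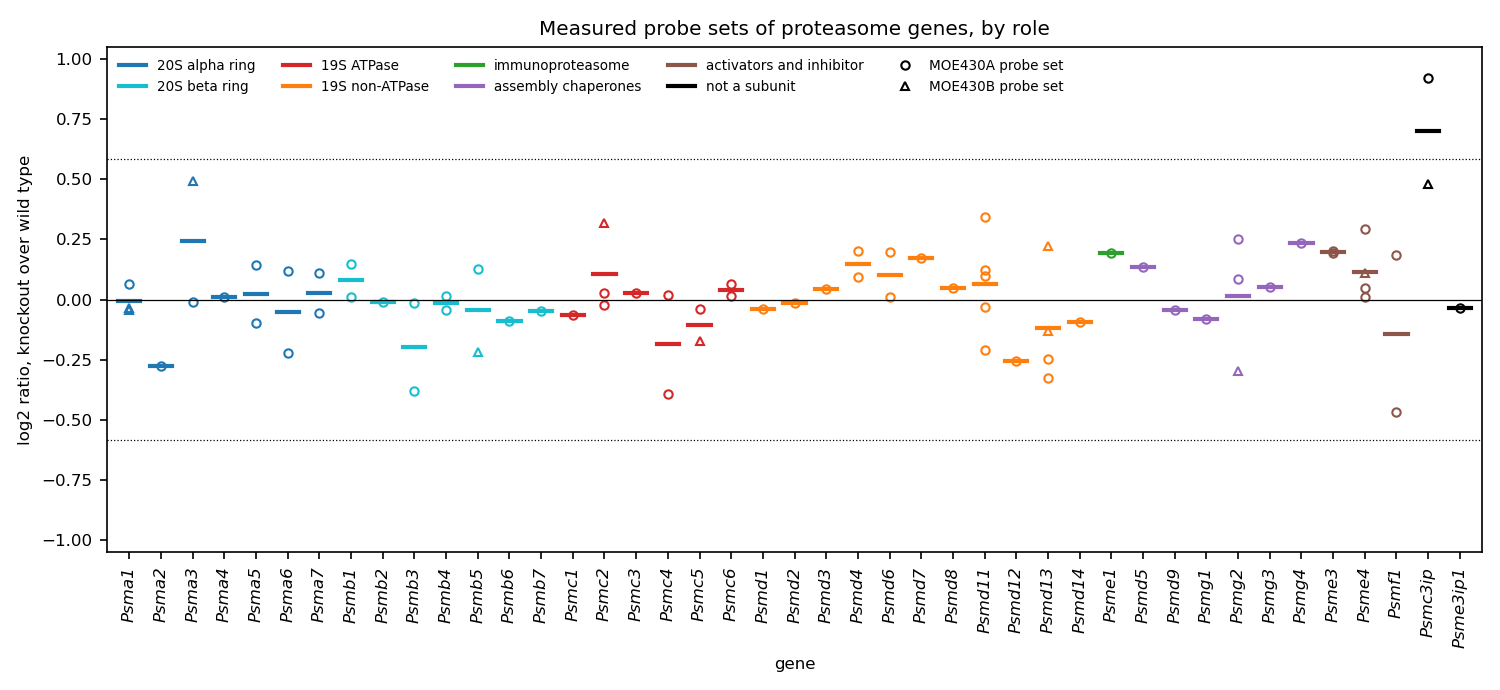
Log2 ratio of the knockout over the wild-type sample for each measured probe set (open circles, MOE430A; open triangles, MOE430B) of the genes on the horizontal axis, coloured by role, with the mean of each gene as a bar and dotted lines at 1.5-fold. The genes of the 20S core and 19S particle lie between -0.28 and 0.24, and Psmc3ip, which is no subunit, is the only gene whose mean lies past a dotted line.

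The same RNAs were read on both designs and by several probe sets of many genes, which shows how far such ratios vary. A set of 100 probe sets is carried by both designs, of which 99 were measured on both, and the SD of the difference between designs in log2 ratio was 0.31. For 3 members both designs gave a value. The shared probe set of Psma1 gave 0.06 and -0.03, that of Psmb5 gave 0.13 and -0.22, and that of Psmc5 gave -0.04 and -0.17. Between different probe sets of a gene the pooled SD was 0.33 over 3956 genes. The first SD is of a difference between designs, and the second is of single probe sets around the mean of their gene. Both come from the same RNAs, and the spread between cultures was not measured.

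The ATPases Psmc1 to Psmc6 form the ring that unfolds substrates. Their median log2 ratio was -0.02, with 3 genes above 0 and 3 below, where 49.8% of all measured genes were above 0. Psmc3 read 5479.8 in wild-type and 5577 in knockout RNA, a log2 ratio of 0.03. Psmc1 was at -0.06, Psmc5 at -0.11 and Psmc6 at 0.04. Psmc2 was at 0.11 from probe sets at 0.03 and -0.02 on MOE430A and 0.32 on MOE430B. Psmc4, whose promoter stretch with an E2F-type motif is printed above, was at -0.19. One probe set read 5780.1 and 5845, a log2 ratio of 0.02, and the other 1211 and 921, a log2 ratio of -0.39.

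The non-ATPase subunits were likewise spread around 0, with a median of 0.04, 6 genes above 0 and 5 below. Across all measured genes, 49.8% were above 0. Psmd1 and Psmd2, the large scaffold subunits of the base, were at -0.04 and -0.01. The Psmd2 value came from a probe set at 13877 in wild-type and 13706 in knockout RNA. A Psmd2 probe set on MOE430B read 1186 in wild-type and 572 in knockout RNA, which gives a bound of at least 1.26-fold lower and did not enter the mean. Psmd4, a receptor for ubiquitin chains, was at 0.15 from probe sets at 0.10 and 0.20. Psmd14, the enzyme that cuts the chain off, read 11816 and 11050.9, a log2 ratio of -0.09, and its partner Psmd7 was at 0.17.

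Among the other subunits of the lid, Psmd12 was lowest. It read 3367 in wild-type and 2818 in knockout RNA, a log2 ratio of -0.25. Psmd13 was at -0.12 from 4 probe sets between -0.33 and 0.22. Both MOE430A probe sets of Psmd13 were lower in the knockout sample, at 4375 and 3677 for 1 and 3124 and 2487 for the other. On MOE430B one read 1604 and 1463, and the remaining one was higher in the knockout sample, at 3731 and 4351. Psmd11 was read by 8 probe sets, the most of any member, of which 5 were measured. These ran from -0.21 to 0.34, and the one at 15484 and 16542 gave 0.10. Psmd6 was at 0.10, Psmd8 at 0.05 and Psmd3 at 0.04.

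With Psmc3ip left out, none of the 42 measured genes passed 1.5-fold, a log2 ratio of 0.58, in either direction. Of all measured genes, 3.51% lay past 1.5-fold on the higher side and 3.86% on the lower, and 0.531% and 0.482% likewise passed 2-fold. Among the 31 core and regulatory genes 29 lay within 0.25 of 0, or 93.5%, where 62.9% of all measured genes did. Brighter genes vary less on these arrays, and 23 of the 31 were among the brightest 20% of measured genes. In that brightest 20%, 76.3% of genes lay within 0.25 of 0, and of the 23 it was 22. Most measured probe sets of the members were on MOE430A. On that design alone, 69.0% of all measured genes and 39 of the 42 lay within 0.25 of 0. The median size of the log2 ratio was 0.06 over the 31 genes, 0.13 over the brightest 20% and 0.18 over all measured genes. This is a description of these arrays, since no test across samples was possible.

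**Figure D2:**
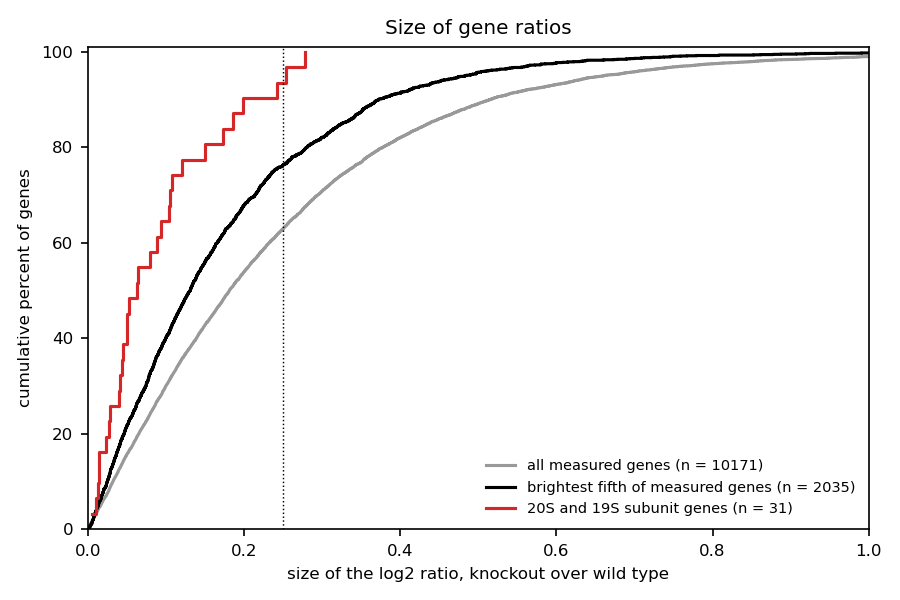
Cumulative percent of genes (vertical axis) whose log2 ratio is at most the size on the horizontal axis, for all 10171 measured genes (grey), the 2035 in the brightest 20% (black) and the 31 genes of the 20S core and 19S particle (red). At the dotted line, 0.25, the curves stand at 62.9%, 76.3% and 93.5%.

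The interferon-inducible cutting subunits were below the floor in both samples, so no ratio was given for them. Psmb9 read 177 in wild-type and 209 in knockout RNA. Psmb10 read 392 and 475. Psmb8 read 89.0 and 65.3 on MOE430A and 244 and 24.8 on MOE430B. All 4 probe sets of these 3 genes lay under the floor of their design in both samples, whereas every probe set of the standard cutting subunits lay above it. A signal below the floor does not show that the transcript was absent.

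Psme1, the PA28 alpha subunit of the activator, was the 1 measured immunoproteasome gene. Its signal was 3078 in wild-type and 3509 in knockout RNA, a log2 ratio of 0.19. Psme2, the PA28 beta subunit, had no probe set of its own symbol and was not described by a gene value. Psme3, the PA28 gamma activator of the nucleus, stood close to Psme1, at 0.20. One probe set read 1584 in wild-type and 1807 in knockout RNA, a log2 ratio of 0.19. The other read 1860.0 and 2134, a log2 ratio of 0.20.

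**Figure D3:**
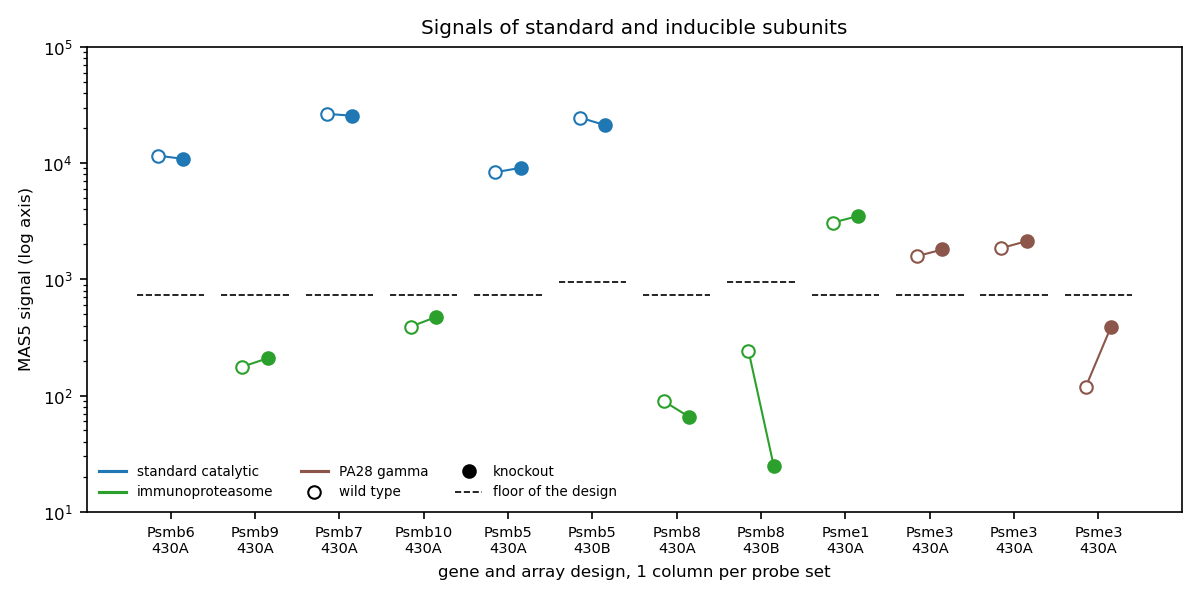
MAS5 signal (vertical axis, log scale) in the wild type (open) and knockout (filled) sample for each probe set of the standard cutting subunits (blue), the immunoproteasome genes (green) and Psme3 (brown), with the floor of the array design as a dashed line. The inducible genes Psmb8, Psmb9 and Psmb10 lie below the floor in both samples, and Psmb5, Psmb6, Psmb7 and Psme1 above it in both.

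Genes of the interferon response and of antigen presentation, in which Tap1 and Tap2 neighbour Psmb9 and Psmb8 in the major histocompatibility complex, were seen in the same samples. Tap1 and Tap2, the peptide transporter, were below the floor in both, on all 4 probe sets of Tap1 and the 1 of Tap2. Of 32 listed genes 15 were measured, with a median log2 ratio of -0.07 and 5 above 0. Of all measured genes, 3.51% lay past 1.5-fold on the higher side and 3.86% on the lower. Among the 15, Irf1, an activator of the immunoproteasome genes, was the 1 gene past 1.5-fold, in the lower direction. Its signal was 2338 in wild-type and 1445 in knockout RNA, a log2 ratio of -0.69 from 1 probe set. B2m, the light chain of class I molecules, was at 0.23 and Tapbp, the chaperone of peptide loading, at 0.39, while the heavy chain gene H2-K1 was at -0.52, from probe sets of a kind that can also bind related sequences. Irf7 was at -0.49 from 1 probe set, at 1201 in wild-type and 853 in knockout RNA. Irf7, B2m, Tapbp and H2-K1 are given here beyond the naming rule, after their values were seen. Of the 15 measured genes 10 were below 0 and 5 above, where 49.8% of all measured genes were above 0.

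The immunoproteasome is abundant in blood cells, so markers of microglia and blood cells are given beside it. Of 9 such genes 2 were above the floor in wild-type and 3 in knockout RNA, and the summed signal of the list was 11267 and 10474. Ptprc, Aif1, Cx3cr1, Tyrobp, C1qa and Cd68 were not above the floor in either sample, while Csf1r and Laptm5 were above it in both. Csf1r was at -0.25 from 3 probe sets and Laptm5 at -0.63 from the 1 measured of its 5. Another Laptm5 probe set, on MOE430B, went the other way, at 883 in wild-type and 1178 in knockout RNA, and a C1qb probe set read 583 and 769, both past the floor in knockout RNA alone. The part of these markers in the interferon values was not tested.

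Assembly chaperones build the particle but leave it when it is complete. Of 7 genes 6 were measured, with a median log2 ratio of 0.03 and 4 above 0, against 49.8% of all measured genes. Psmg4, which with Psmg3 helps to close the alpha ring, was highest, at 4186 in wild-type and 4913 in knockout RNA, a log2 ratio of 0.23. Psmg3 was at 0.05 and Psmg1 at -0.08. Psmg2, the partner of Psmg1, was at 0.01 from probe sets that did not match. It read 1195 and 1421 on one MOE430A probe set, 1074 and 1138 on the other, and 1864 and 1515 on MOE430B, with log2 ratios of 0.25, 0.09 and -0.30. Psmd5 and Psmd9, chaperones of the 19S base, were at 0.13 and -0.04. Psmd10, the oncoprotein gankyrin and also a base chaperone, read 559 and 636, below the floor in both samples.

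The activator Psme4, PA200, was at 0.12 from 4 measured probe sets between 0.01 and 0.29. A MOE430B probe set of Psme4 read 957 in wild-type and 71.4 in knockout RNA. The first value was just above the floor, so the bound was at least 1.02-fold lower, while the 4 measured probe sets of the gene were all above 0. Psmf1, the inhibitor PI31, had the widest disagreement among the members. One probe set read 2110 in wild-type and 1522 in knockout RNA, a log2 ratio of -0.47. The other read 1012 and 1147, a log2 ratio of 0.18. The mean for Psmf1 was -0.14. The tissue-specific subunits Psma8, of the testis, and Psmb11, of the thymus, were below the floor in both samples, with 237 and 97.9 for Psma8 and 794 and 744 for Psmb11.

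Of the genes that match by letters alone, Psme3ip1 was at -0.03. Psmc3ip was the only one of the 43 measured members past 1.5-fold, where 3.51% of all measured genes passed 1.5-fold on the higher side. On MOE430A Psmc3ip read 2293 in wild-type and 4337 in knockout RNA, a log2 ratio of 0.92. On MOE430B a different probe set read 1979 and 2758, a log2 ratio of 0.48. Both probe sets were higher in the knockout sample, and the mean of 0.70 is 1.63-fold. With the floor value added to each signal as a pseudocount and no probe set left out, the log2 ratio of Psmc3ip was 0.54, under 1.5-fold.

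The signal of a probe set went with how far its ratio lay from 0. With those of Psmc3ip left out, 73 probe sets were measured, and their log2 ratios ran from -0.47 to 0.49. The 63 on MOE430A had a median size of 0.09 and the 10 on MOE430B of 0.19, while over all measured single-symbol probe sets the sizes were 0.17 and 0.26. The 31 probe sets that were not measured ran from -3.74 to 5.56 and 12 of them were past 2-fold. The extreme was a Psma6 probe set at 2.99 in wild-type and 141 in knockout RNA, while both measured Psma6 probe sets gave -0.22 and 0.12. Among members' probe sets with a mean signal of 8000 or more, the median size was 0.06 over 19, from 2000 to 8000 it was 0.10 over 36, from 500 to 2000 it was 0.19 over 24, and under 500 it was 0.75 over 25. In the same bands, all single-symbol probe sets had median sizes of 0.12, 0.19, 0.34 and 0.81. Under 500, 11 of the members' 25 probe sets were past 2-fold, and 42.7% of all 12716 were, so the members' share was near that of the arrays.

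**Figure D4:**
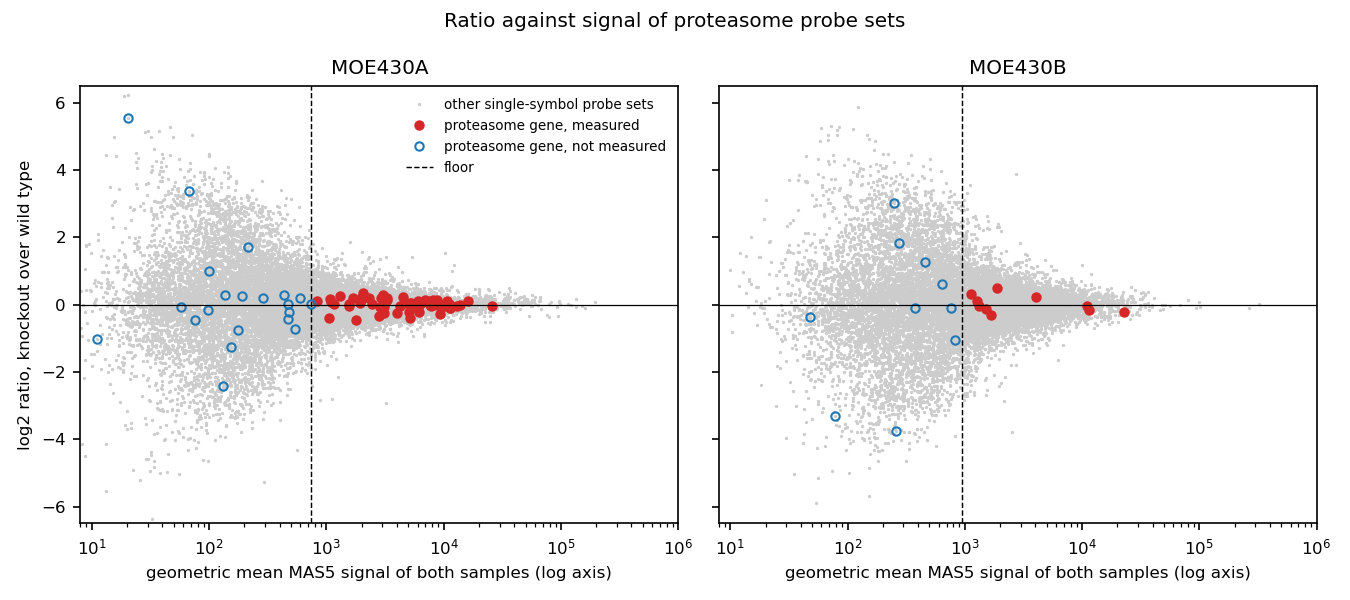
Log2 ratio of the knockout over the wild-type sample (vertical axis) against the geometric mean MAS5 signal of both samples (horizontal axis, log scale) on MOE430A (left) and MOE430B (right), for measured probe sets of proteasome genes (red), those not measured (open blue), and other single-symbol probe sets (grey), with the floor as a dashed line. The measured ones lie between -0.47 and 0.49, and the ones not measured, which missed the floor in 1 or both samples, spread from -3.74 to 5.56.

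Genes that work with the proteasome were described from lists of its partners. Of 10 genes bound to the particle or to its assembly, 9 were measured, with a median log2 ratio of -0.06. Of these, 3 were above 0, against 49.8% of all measured genes, and none passed 1.5-fold. Usp14, a deubiquitinating enzyme on the 19S particle, was lowest at -0.42. Its 4 probe sets were all lower in the knockout sample, from -0.03 to -0.98, and the last, on MOE430B, read 5439 in wild-type and 2748 in knockout RNA. Uchl5, the other deubiquitinating enzyme bound there, was at 0.39, and Pithd1 at 0.47. Pomp, the maturation factor of the 20S core, read 7157 and 7459, a log2 ratio of 0.06, close to the core genes it serves.

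Of 15 shuttle receptors and genes of the VCP segregase, which pulls proteins out of complexes for degradation, 11 were measured. Their median log2 ratio was -0.001 and 5 were above 0, against 49.8% of all measured genes. Vcp read 26393 and 25909, a log2 ratio of -0.02. The farthest from 0 were Zfand5 at -0.28, Ufd1 at 0.23 and Nploc4 at 0.19. The 5 measured probe sets of Zfand5 were all below 0. A further one on MOE430B went the other way, at 242 in wild-type and 1282 in knockout RNA, past the floor in knockout RNA alone. Of 8 genes of ubiquitin, NEDD8 and their activation, 3 were measured and 5 had no probe set of a single symbol. Nedd8, the ubiquitin-like protein that activates cullin ligases, read 8401 in wild-type and 16655 in knockout RNA. Its log2 ratio of 0.99, or 1.99-fold higher, rested on 1 probe set. Uba3, which loads NEDD8, was at 0.002, and Uba6, which activates ubiquitin, at 0.12.

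Of the transcription factors that bind proteasome promoters, 4 of 5 measured genes were above 0, against 49.8% of all measured genes. Their median log2 ratio was 0.29. Nfe2l1, which raises proteasome transcription when the particle is inhibited, read 2899 in wild-type and 3561 in knockout RNA, a log2 ratio of 0.30. Of the subunits of NF-Y, Nfya was at 0.35, Nfyb at 0.29 and Nfyc at 0.09, and Stat3 was at -0.15. Nfe2l2 passed the floor only in wild-type RNA, at 814, and read 683 in knockout RNA. None of these genes passed 1.5-fold.

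**Figure D5:**
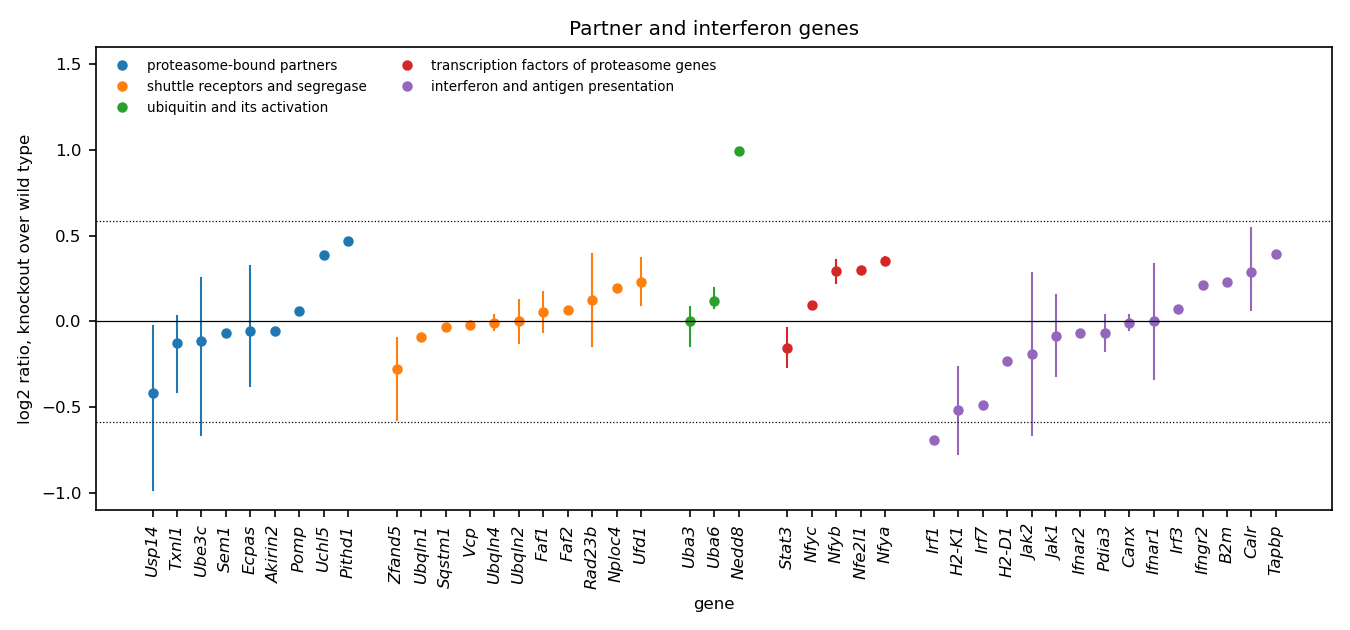
Mean log2 ratio of the knockout over the wild-type sample (points) and the range over measured probe sets (lines) for genes of proteasome partners, shuttle receptors, ubiquitin activation, transcription factors and interferon or antigen presentation, with dotted lines at 1.5-fold. Nedd8 at 0.99 and Irf1 at -0.69 are the genes whose mean lies past a dotted line.

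Motifs were counted in promoter windows from 250 bases before to 50 after the start, on both strands. There were 41 windows for 39 of the 47 genes, since a gene can have several, and 32851 windows for all genes. The antioxidant response core TGACNNNGC was found in 6 of the 41 windows, or 14.6%, and in 12.4% of all windows. The genes with it were Psmb5, Psmb6, Psmc6, Psmd9, Psmd12 and Psme4, with a median log2 ratio of -0.04, where the 28 measured genes without it had 0.004. In the printed stretches the match begins 47 bases before the start in Psmb5 and 9 in Psmb6.

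The E2F-type motifs searched were TTTGGCGC, TTTCGCGC, TTTCCCGC and TTTGCCGC. Any of the 4 was found in 3 of the 41 windows, or 7.32%, and in 2.26% of all windows. Psmc4 held TTTCCCGC on the strand of the gene. Psmc2 held it on the opposite strand, after the start in 1 of its windows, and Psmb9 held TTTGGCGC on the opposite strand. TTTCGCGC and TTTGCCGC were in none of the 41. Psmc2 stood at 0.11 and Psmc4 at -0.19, on either side of 0, and Psmb9 was below the floor. The motif CCAAT was found in 14 of the 41 windows and 37.4% of all windows, and TTTGAA, the cell-cycle homology region, in 3 of the 41 and 17.9%. A match is a run of letters, and binding was not measured here.

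Per the file headers, both samples of a design shared a hybridisation day, and their median signals were 735 and 736 on MOE430A and 941 and 942 on MOE430B. The lowest ratio of all measured genes was that of Xist, at -2.93, a transcript of the inactive X chromosome in female cells, and its relation to the other values was not tested. E2f4 itself read 1812 in wild-type RNA and 1535 in the RNA labelled knockout. The sources used here do not place its 1 probe set relative to the deletion, so it does not check the label. Of 7 neural stem and progenitor markers, Sox2 and Nes among them, all were measured and 6 were above 0, with a median of 0.21 and summed signals of 138030 and 150532. All 6 neuron markers were measured and 5 were below 0, with a median of -0.18 and summed signals of 167227 and 145096. Of 6 red blood cell markers 3 were measured, all below 0, with summed signals of 279641 and 214986. Across all measured genes, 49.8% were above 0, and the median size of the log2 ratio was 0.18. The highest probe set of Hbb-y, an embryonic globin, read 89828 in wild-type and 69939 in knockout RNA, above every probe set of the members. In bulk RNA, fewer cells of a type and less RNA per cell cannot be told apart. The part of these marker differences in the proteasome values was not tested.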

How the data were processed

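The deposited values are MAS5 signal intensity on a linear scale, scaled by the authors to a trimmed mean of about 1500 on each array, as the values show; the submitters' processing notes name MAS5, and no source used here gives its version. Control probe sets, 64 per design, were dropped. Log2 ratios of knockout over wild type were computed within each design, and the median of measured probe sets, -0.003 on MOE430A and -0.001 on MOE430B, was subtracted. A probe set was measured where both samples reached the median signal of the design, and a gene's value is the mean of its measured probe sets. For a probe set past the floor in only 1 sample, that signal divided by the floor is printed as a bound. Symbols come from the platform annotation, and 1 probe set shared by Psme2 and Psme2b named no gene.

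The members and lists were chosen with earlier results of these data known. Every member is named. Partner and interferon genes are named where past 1.5-fold, or else the 3 farthest from 0 of a list, and others after their values were seen. With 1 sample per genotype no test was run, and precision is limited by the number of arrays. Promoter sequences are RefSeq's for GRCm38.p6. The ratios were tested on simulated data. Alternatives were other floors, a pseudocount, other normalizations, other choices of probe sets and each design alone. Calculations used pandas 2.3.3 with numpy 2.4.6 under Python 3.11.15, and figures matplotlib 3.10.9.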

Additional observations from a re-analysis of the deposited data

How the results depend on the processing

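The medians of the 20S core, the 19S particle and all 42 measured genes stayed within 0.05 of 0 under every alternative run, with ranges of -0.05 to -0.01, -0.04 to 0.05 and -0.02 to 0.01. The last range includes leaving out Psme3ip1, an alternative added after seeing the data. The immunoproteasome median, of Psme1 alone as reported, ran from 0.07 with the pseudocount, over 4 genes, to 0.23 with the floor at the 30th percentile, over 2 genes, and had no value on MOE430B alone. Psme1 itself ran from 0.15 to 0.21. Without a floor, probe sets of low signal entered the means, and 3 genes were past 1.5-fold higher and 3 lower, with 2 and 2 past 2-fold. These were Psma6 at 1.36, Psmc1 at 1.65 and Psme3 at 0.69 on the higher side, and Psma8, Psmb8 and Psmb1, the last at -0.77, on the lower. On MOE430B alone 8 genes were measured and 4 were above 0. Over the single genes, 424 of 432 values moved by less than the SD of 0.33 between probe sets. Apart from Psmc3ip, every gene mean was smaller in size than this SD. The count therefore cannot show that a gene kept its direction. Psmd4, for example, counted as unmoved though it went from 0.15 to -0.15 without a floor. The brightest probe set of Psmd13, the MOE430B one at 3731 and 4351, gave 0.22 where the mean was -0.12. With the floor at the 30th percentile Psmd2 stood at -0.53, because its MOE430B probe set at 1186 and 572 then entered the mean. No paired analysis was possible because each genotype had 1 sample.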

Other observations

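A probe set of MOE430A is annotated to Psme2 and Psme2b together and entered no gene value. It read 1664 in wild-type and 2264 in knockout RNA, at a log2 ratio of 0.45, above the floor in both samples. Which of these genes it reads was not tested.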
